A study of Mus musculus with 8 samples.

Results

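Glycolysis and the entry of pyruvate into mitochondria were followed through 31 genes, the rows of the deposited expression table that carry 31 listed symbols, out of 23284 genes in the table. The list holds 15 enzymes of the glycolytic steps, 2 glucose transporters, 3 bifunctional enzymes that set the level of fructose-2,6-bisphosphate, 2 lactate dehydrogenase subunits, 2 lactate transporters, 4 subunits of the pyruvate dehydrogenase complex and 3 of the kinases that inactivate it. Pkm2 is the table's name for Pkm, the pyruvate kinase gene. The members were chosen by name and function, with earlier results of these data known, and all 31 passed the filter of a mean FPKM of 1 or more that left 11452 genes for testing.

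The cells were P19, an established mouse embryonal carcinoma line that resembles the pluripotent cells of the early embryo and is grown as an undifferentiated culture. The control arm received a control siRNA and the knockdown arm an siRNA against Upf3a, whose product takes part in nonsense-mediated decay, the pathway that removes mRNAs with a premature stop codon. A day after transfection all cells received actinomycin D, which blocks transcription, and RNA was taken 0, 15, 105 and 225 min later. Every group, controls included, therefore carries a transfected siRNA and actinomycin D, no untransfected or untreated culture was among the samples used here, and the question in the series' design text is how transcript stability depends on Upf3a. The labels list 2 cultures for each of the 8 conditions, and the table holds 1 value per gene and condition. Here n counts time points, and p-values measure disagreement between time points and not between cultures. Values are FPKM, fragments per kilobase of transcript scaled for depth, so levels can be compared between genes, but a fall in total mRNA is not seen, and fewer cells cannot be told apart from less RNA per cell. Values below are in the order 0, 15, 105 and 225 min.

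FPKM totals ran from 537350 to 923333 per condition, read depth is unknown, and the authors' upper confidence limits exceeded the values by 32.0% to 32.5% (medians over genes). Upf3a was at 13.6, 14.0, 14.0 and 15.0 FPKM in the control arm and at 5.27, 4.52, 4.76 and 4.16 FPKM in the knockdown arm. The knockdown mean of 4.68 ± 0.47 FPKM was 33.1% of the control mean of 14.1 ± 0.60 FPKM (SD over n = 4 time points; exact two-sided sign-flip p = 0.12, the smallest that 4 pairs allow). All 8 markers of undifferentiated P19 cells were above 1 FPKM in at least 1 condition, Pou5f1 between 1391 and 3153 FPKM, and the list summed to 2056 to 3432 FPKM in the control arm and to 2475 to 4203 FPKM in the knockdown arm. The summed markers of fibroblasts (8.45 to 15.3 FPKM), muscle (1.68 to 3.51 FPKM) and blood (1.70 to 4.85 FPKM) were low in both arms, and those of neurons summed to 50.4 to 71.2 FPKM in the control arm and to 45.2 to 61.1 FPKM in the knockdown arm. The next values are mean FPKM with the control siRNA and then with the Upf3a siRNA. Each of the 5 neuronal markers was lower with the Upf3a siRNA. Among them were Tubb3 (52.8 and 46.2), which made up most of that list's sum, Syp (2.61 and 1.50), Elavl4 (1.26 and 0.75) and, barely, Map2 (2.02 and 2.00). Each of the 8 undifferentiated markers was higher except Dppa4 (32.2 and 31.2). Among those higher, Utf1 (133 and 264) differed widely and Pou5f1 (1908 and 2120) little. Of these markers 2 of 4 for muscle, 1 of 3 for blood and 1 of 5 for neurons were below 1 FPKM in every condition. The part of any of these lists in the results was not tested.

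In glycolysis, glucose enters through facilitative transporters, is phosphorylated by hexokinase, and is turned into a doubly phosphorylated sugar by phosphofructokinase, the main control point of the pathway. Aldolase splits that sugar, and the later enzymes turn the fragments into pyruvate while making ATP. Pyruvate is then either reduced to lactate and exported or oxidised to acetyl-CoA by pyruvate dehydrogenase, a mitochondrial complex that is switched off when its kinases phosphorylate the E1 alpha subunit. Pluripotent and tumour cells are known for running glycolysis fast and exporting lactate even with oxygen present, and many genes of the pathway are known targets of the hypoxia-inducible factors and of Myc, which bind short DNA motifs with an ACGTG core.

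The promoters were searched for the DNA motifs named above. RefSeq promoter windows (GRCm38.p6, 250 bases before to 50 after a transcript start) were found for 30 of the 31 members, 46 windows in all, and Slc2a3 had no window. The core ACGTG, searched on both strands, was in 22 of the 46 windows (47.8%), against 19.6% of all 32851 windows and 26.0% of the 10561 windows of tested genes. Windows of the same gene can overlap and hold the same match, as for Aldoa. Counted by gene, ACGTG was in 18 of the 30, and no share by gene is given for tested genes. The related core GCGTG was in 25 of 46 (54.3%), against 32.4% of all windows and 52.2% of those of tested genes, so its share among the members was near that of expressed genes. The E box CACGTG, which contains an ACGTG on each strand, was in 6 of 46 windows (13.0%; 7.15% of all and 10.2% of tested genes' windows). The GC box GGGCGG was in 25 windows (54.3%; 35.7% and 65.4%) and the TATA box TATAAA in 2 (4.35%; 13.6% and 6.62%). The median GC content was 61.2% in the members' windows, 61.3% in those of tested genes and 52.7% in all.

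Upstream sequences are printed for 3 genes that were lower in the knockdown arm (Pgk1, Ldha and Slc16a1), because they carry ACGTG cores, and for the 2 pyruvate dehydrogenase genes that were higher (Dlat and Dld), because neither core occurs in theirs. Each is the 250 bases before the transcript start, taken at the first start listed on the chromosome, read 5′ to 3′ on the gene's strand, with every ACGTG or GCGTG in capitals on whichever strand it lies. The windows are chrX:106186850-106187099 (plus strand), chr7:46845554-46845803 (plus strand), chr3:104638414-104638663 (plus strand), chr9:50659781-50660030 (minus strand) and chr12:31351472-31351721 (minus strand), and 0 annotated exons overlap any of the 5 windows in GENCODE vM21.
Pgk1: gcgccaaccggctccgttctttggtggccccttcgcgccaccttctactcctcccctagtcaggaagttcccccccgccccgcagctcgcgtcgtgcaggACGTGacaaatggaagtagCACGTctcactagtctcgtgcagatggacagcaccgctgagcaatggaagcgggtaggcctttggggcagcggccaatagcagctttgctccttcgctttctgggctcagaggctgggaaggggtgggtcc
Ldha: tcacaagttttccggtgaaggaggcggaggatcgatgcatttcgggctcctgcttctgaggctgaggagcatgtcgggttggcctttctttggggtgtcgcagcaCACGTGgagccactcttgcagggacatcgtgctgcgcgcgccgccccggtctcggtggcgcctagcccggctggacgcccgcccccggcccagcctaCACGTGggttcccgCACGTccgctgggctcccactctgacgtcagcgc
Slc16a1: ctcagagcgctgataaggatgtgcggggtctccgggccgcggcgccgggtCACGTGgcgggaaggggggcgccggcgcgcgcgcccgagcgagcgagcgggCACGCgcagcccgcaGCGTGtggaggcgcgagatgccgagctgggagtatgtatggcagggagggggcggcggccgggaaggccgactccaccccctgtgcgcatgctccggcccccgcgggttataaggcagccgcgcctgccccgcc
Dlat: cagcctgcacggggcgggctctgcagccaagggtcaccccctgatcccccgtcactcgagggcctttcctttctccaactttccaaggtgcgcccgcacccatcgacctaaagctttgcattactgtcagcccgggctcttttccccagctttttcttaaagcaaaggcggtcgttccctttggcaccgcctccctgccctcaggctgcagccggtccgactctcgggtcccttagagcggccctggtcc
Dld: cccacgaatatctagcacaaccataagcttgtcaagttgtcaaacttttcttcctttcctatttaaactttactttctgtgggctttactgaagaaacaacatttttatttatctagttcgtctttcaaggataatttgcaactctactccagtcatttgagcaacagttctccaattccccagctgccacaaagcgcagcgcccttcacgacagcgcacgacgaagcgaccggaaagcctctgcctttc
Pgk1 has 2 ACGTG cores in this stretch, Ldha has 5, of which 4 are the strand pairs of 2 E boxes, and Slc16a1 has 1 E box, which gives 2 ACGTG cores, and 2 GCGTG cores. Over all 30 genes with a window, ACGTG was present in 10 of the 14 that were lower in the knockdown arm, in 1 of 3 that were higher and in 7 of 13 that were not called. GCGTG was present in 8 of the 14 lower, 1 of the 3 higher and 10 of the 13 not called. The printed genes were picked by call and motif. Of those not printed, Pdk3 was higher and carried both cores, and Tpi1 was lower and carried neither. A match is a run of letters, not a shown binding site, and the association of motifs with the calls was not tested.

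By level, a few abundant enzymes dominated. Gapdh, which oxidises the triose phosphate, had the highest FPKM of the 31, with a control-arm mean of 5871 ± 1929 FPKM (SD, n = 4 time points), and its range did not overlap that of the next gene. Pkm2 (2916 ± 858), Ldha (1834 ± 517), Aldoa (1632 ± 338) and Pgk1 (1312 ± 369 FPKM) followed, with ranges over time that overlapped from each gene to the next. These 5 genes held 74.6% to 77.5% of the members' summed FPKM in every condition. Eno1, Pgam1 and Tpi1 lay between 618 and 1303 FPKM in the control arm. Eno1 summed with its near-identical copy Gm5506 was at 1699, 1595, 2294 and 3075 FPKM there. The place of Eno1 in this order therefore depends on how reads were divided between the copies. The committing steps were far lower: Hk2 averaged 36.5 ± 8.97 FPKM, Pfkl 202 ± 57.9 FPKM and the pyruvate dehydrogenase subunits from 14.5 FPKM (Dlat) to 107 FPKM (Pdhb). Pfkfb4, Eno2, Pdk2, Pfkfb2 and Pfkfb3 were the 5 lowest members, with means of 1.99 to 5.04 FPKM. Of 17 further isozymes of the same steps, 13 had a mean FPKM under 1, among them the testis forms Pgk2 and Gapdhs. In order of control mean, neighbouring members had overlapping ranges over time except below Gapdh, Tpi1, Pdha1, Pdk1 and Pfkfb2.

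**Figure D1:**
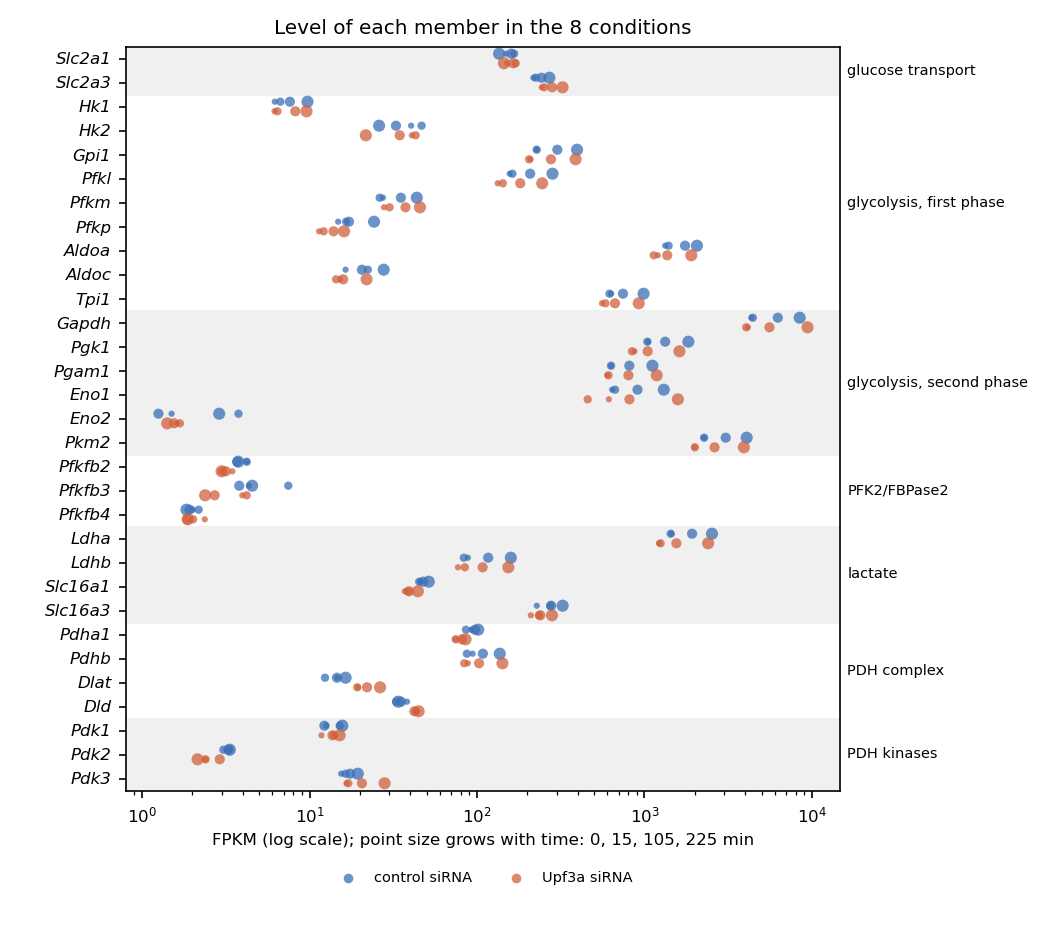
FPKM of each of the 31 members on a log axis in the 8 conditions, blue for control siRNA and red for Upf3a siRNA, with point size growing from 0 to 225 min; shading separates the functional groups. Gapdh lies highest at 4048 to 9411 FPKM, and most of the enzymes of the second phase move to the right with time in both arms.

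The knockdown arm had less mRNA of many glycolytic genes and more of the pyruvate dehydrogenase subunits Dlat and Dld. The arms were compared with time point as a factor in limma over all 11452 genes, on the log2(FPKM + 1) scale, which understates the change of low genes. At an adjusted p below 0.05, 14 of 31 members were lower in the knockdown arm, where 22.3% of all tested genes were lower, and 4 were higher, where 26.1% of all genes were. The other 13 were not called, and 19 members (61.3%) had an unadjusted p below 0.05, near the 55.7% of all genes. The counts by role group below stand against these same shares, and a count in a group of 2 to 9 genes is a description. The members' median difference was -0.12 log2 units, against 0.00 for all genes. At the 4 times the median was -0.10, -0.15, -0.13 and -0.06 log2 units. Of the members 15 were lower at all 4 times (28.6% of all genes were) and 6 were higher at all 4 (31.8%). The differences were small beside the authors' own error: their confidence limits overlapped between the arms at every time for all 31 members, and were apart at 1 or more times for 2.9% of tested genes. Scaling to 80 ribosomal protein genes moved the split among members from 14 lower and 4 higher to 7 lower and 5 higher, while the median of all genes moved to 0.08 log2 units; the 7 calls lost were Pfkl, Aldoa, Aldoc, Tpi1, Pkm2, Ldha and Slc16a3, and the call gained was Pfkm. The members' median lay 0.13 log2 units below that of all genes as deposited and 0.12 below it after that scaling.

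**Figure D2:**
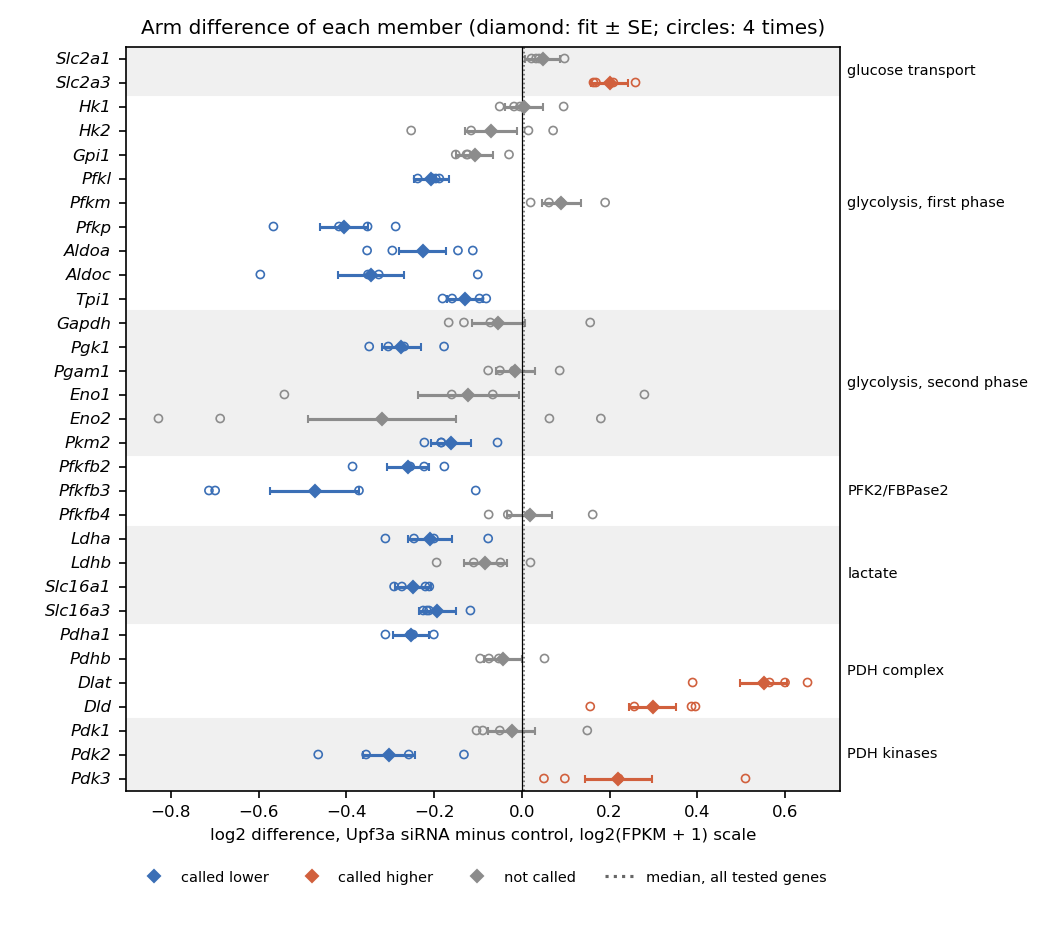
Difference between the arms for each member (Upf3a siRNA minus control, log2 units), with circles for the 4 time points and a diamond with a bar for the fitted value ± SE, coloured by the limma call; the dotted line is the median of all tested genes. Of the 31 members 14 are called lower and 4 higher, and Dlat lies farthest to the right at 0.55.

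Of the glucose transporters, the neuronal and embryonic form Slc2a3 was higher in the knockdown arm and the ubiquitous form Slc2a1 did not pass the test. Slc2a3 (chromosome 6, 122727809 to 122801640, minus strand) was at 217, 224, 243 and 271 FPKM in the control arm and at 243, 252, 281 and 324 FPKM in the knockdown arm. It was higher at all 4 times, and the difference was 0.20 log2 units (SE 0.04, limma adjusted p = 0.00638). Quantile normalization ended that call, with an adjusted p of 0.0524 within a range of 0.00222 to 0.0524 over 14 alternatives. Slc2a1 was at 149, 166, 160.1 and 135 FPKM in the control arm and at 151, 170.2, 165 and 145 FPKM in the knockdown arm. It was also higher at all 4 times, by 0.05 log2 units on average (limma adjusted p = 0.354). Slc2a3 made up 57.4% to 69.1% of the summed FPKM of both transporters.

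In the first phase, from hexokinase to triose phosphate isomerase, 5 of 9 genes were lower and none was higher. Phosphofructokinase is a tetramer of liver (Pfkl), muscle (Pfkm) and platelet (Pfkp) subunits. Pfkp (chromosome 13, 6579768 to 6648777, minus strand), the least abundant of them, was at 14.8, 16.5, 17.2 and 24.3 FPKM in the control arm and at 11.4, 12.1, 13.9 and 16.1 FPKM in the knockdown arm. It was lower at every time, with a difference of -0.41 log2 units (SE 0.05, limma adjusted p = 0.000999), the largest difference by absolute value among the enzymes of the glycolytic steps. Pfkl (chromosome 10, 77986947 to 78010083, minus strand), the main form here, was at 157, 163, 208 and 282 FPKM in the control arm and at 133, 143, 181 and 245 FPKM in the knockdown arm. It differed by -0.21 log2 units (SE 0.04, limma adjusted p = 0.00452). Pfkm was at 27.4, 26.2, 35.1 and 43.7 FPKM in the control arm and at 27.8, 30.1, 37.4 and 45.6 FPKM in the knockdown arm. Pfkm was higher at all 4 times, but the difference of 0.09 log2 units did not pass the test (limma adjusted p = 0.137). Pfkm took a larger share of phosphofructokinase FPKM in the knockdown arm. That share was 13.8%, 12.8%, 13.5% and 12.5% in the control arm and 16.2%, 16.3%, 16.1% and 14.9% in the knockdown arm, and the arms did not overlap.

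Aldolase was lower in both of its forms. Aldoa (chromosome 7, 126795234 to 126800751, minus strand), which held 98.4% to 98.9% of aldolase FPKM, was at 1329.6, 1393, 1747 and 2057 FPKM in the control arm and at 1202, 1135, 1368 and 1904 FPKM in the knockdown arm. The difference was -0.23 log2 units (SE 0.05, limma adjusted p = 0.0113). It missed the threshold without the 15 min time point (limma adjusted p = 0.0503) and without the 105 min time point (limma adjusted p = 0.0509), and ran from 0.00742 to 0.0691 over 14 alternatives. Aldoc (chromosome 11, 78322968 to 78327781, plus strand), the form known from brain, was at 16.4, 22.3, 20.5 and 27.7 FPKM in the control arm and at 15.2, 14.4, 15.9 and 21.9 FPKM in the knockdown arm. Its difference was -0.34 log2 units (SE 0.08, limma adjusted p = 0.00843), with the widest gap at 15 min. Tpi1 (chromosome 6, 124810586 to 124814296, minus strand), which interconverts the products of aldolase, was at 632, 618, 744 and 988 FPKM in the control arm and at 557, 584, 666 and 924 FPKM in the knockdown arm. Tpi1 was lower at all 4 times, with a difference of -0.13 log2 units (SE 0.04, limma adjusted p = 0.0365), and the call was lost when any 1 of the 4 time points was left out (limma adjusted p = 0.118, 0.0771, 0.120 and 0.0514 without 0, 15, 105 and 225 min; 0.0129 to 0.431 over 14 alternatives).

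Hexokinase and glucose-6-phosphate isomerase did not pass the test. Hk2, the inducible hexokinase, was at 40.4, 46.7, 32.8 and 26.0 FPKM in the control arm and at 40.8, 43.0, 34.5 and 21.7 FPKM in the knockdown arm. It was higher in the knockdown arm at 0 and 105 min and lower at 15 and 225 min, with a mean difference of -0.07 log2 units (limma adjusted p = 0.363). Gpi1 was at 227, 227, 302 and 396 FPKM in the control arm and at 208, 205, 276 and 388 FPKM in the knockdown arm. It was lower at all 4 times, with a difference of -0.11 log2 units (SE 0.04, limma adjusted p = 0.0715), and passed the threshold under 6 of 14 alternatives, among them leaving out the 225 min time point (limma adjusted p = 0.0481, within 0.00902 to 0.670). Hk1, the housekeeping hexokinase, ranged from 6.18 to 9.72 FPKM in the 2 arms together, with a difference of 0.01 log2 units (limma adjusted p = 0.923).

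In the second phase 2 of 6 genes, Pgk1 and Pkm2, were lower, where 22.3% of all genes were, and none was higher. Pgk1 (chromosome X, 106187100 to 106203699, plus strand), phosphoglycerate kinase, was at 1050.0, 1039.8, 1329 and 1828 FPKM in the control arm and at 872, 842, 1044 and 1617 FPKM in the knockdown arm. It was lower at each time, with a difference of -0.27 log2 units (SE 0.05, limma adjusted p = 0.00241), which puts the knockdown arm at 83.4% of control by mean FPKM. Pkm2 (chromosome 9, 59656368 to 59679375, plus strand), pyruvate kinase, was at 2261, 2271, 3056 and 4076 FPKM in the control arm and at 1991, 1999, 2619.9 and 3922 FPKM in the knockdown arm. Its difference of -0.16 log2 units (SE 0.05, limma adjusted p = 0.0220) missed the threshold without the 0, 15 or 105 min time point (limma adjusted p = 0.0715, 0.0832 and 0.0888, within 0.00995 to 0.179 over 14 alternatives).

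Gapdh, Pgam1, Eno1 and Eno2 did not pass. Gapdh was at 4349, 4436, 6254 and 8447 FPKM in the control arm and at 4138, 4048, 5572 and 9411 FPKM in the knockdown arm. The knockdown arm was lower at the first 3 times and higher at 225 min, and the mean difference was -0.05 log2 units (limma adjusted p = 0.489). Eno1 was at 641, 667, 908 and 1303 FPKM in the control arm and at 612, 458, 813 and 1582 FPKM in the knockdown arm, which gave -0.12 log2 units (SE 0.11, limma adjusted p = 0.407) and the same change of sign at 225 min. Single time points moved the Eno1 value: it was -0.26 log2 units without 225 min and 0.02 without 15 min. Eno2, the neuronal enolase, was at 1.50, 3.76, 1.25 and 2.89 FPKM in the control arm and at 1.61, 1.68, 1.55 and 1.41 FPKM in the knockdown arm. The control values at 15 and 225 min lay above all 4 knockdown values, and the difference was -0.32 log2 units (SE 0.17, limma adjusted p = 0.157). Pgam1 ranged from 599 to 1184 FPKM with a difference of -0.01 log2 units (limma adjusted p = 0.807).

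Of the bifunctional enzymes that make and break fructose-2,6-bisphosphate, the strongest activator of phosphofructokinase, 2 of 3 were lower. Pfkfb3 (chromosome 2, 11471433 to 11554077, minus strand), the form with the highest kinase activity, was at 4.34, 7.47, 3.80 and 4.54 FPKM in the control arm and at 3.97, 4.21, 2.71 and 2.38 FPKM in the knockdown arm. It was lower at all 4 times and differed by -0.47 log2 units (SE 0.10, limma adjusted p = 0.00748), the largest difference by absolute value of the 14 lower members. The control value at 15 min stands above the other 3. Pfkfb2 (chromosome 1, 130689182 to 130729253, minus strand) was at 4.21, 4.22, 3.70 and 3.75 FPKM in the control arm and at 3.46, 2.99, 3.16 and 2.98 FPKM in the knockdown arm. The arms did not overlap, and the difference was -0.26 log2 units (SE 0.05, limma adjusted p = 0.00402). Pfkfb4 ranged from 1.84 to 2.37 FPKM and differed by 0.02 log2 units (limma adjusted p = 0.791).

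The lactate branch was lower in 3 of its 4 genes. Ldha (chromosome 7, 46841475 to 46855627, plus strand), the subunit that favours lactate formation, was at 1447, 1434, 1924 and 2529.7 FPKM in the control arm and at 1220.1, 1248, 1551 and 2399 FPKM in the knockdown arm. It differed by -0.21 log2 units (SE 0.05, limma adjusted p = 0.0119), and the call was lost without the 105 min time point (limma adjusted p = 0.0545, within 0.00605 to 0.0545 over 14 alternatives). The lactate exporters Slc16a1 and Slc16a3, also called MCT1 and MCT4, were both lower. Slc16a1 (chromosome 3, 104638668 to 104658462, plus strand) was at 45.6, 45.2, 47.7 and 51.5 FPKM in the control arm and at 37.1, 38.6, 39.3 and 44.4 FPKM in the knockdown arm. The arms did not overlap, with the highest knockdown value below the lowest control value, and the difference was -0.25 log2 units (SE 0.04, limma adjusted p = 0.00236). Slc16a3 (chromosome 11, 120948480 to 120960868, plus strand) was at 227, 274, 277 and 325 FPKM in the control arm and at 209.6, 234, 239 and 280.3 FPKM in the knockdown arm. It was lower at each time, with a difference of -0.19 log2 units (SE 0.04, limma adjusted p = 0.00805). Ldhb, the heart subunit, was at 88.2, 83.4, 117 and 159 FPKM in the control arm and at 77.0, 84.6, 108 and 154 FPKM in the knockdown arm, and its difference of -0.08 log2 units did not pass (limma adjusted p = 0.193). Ldha held 93.5% to 94.5% of lactate dehydrogenase FPKM.

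Genes of the pyruvate dehydrogenase complex differed in both directions. Its E1 component is made of alpha and beta subunits (Pdha1 and Pdhb), E2 is the acetyltransferase core (Dlat) and E3 the dihydrolipoamide dehydrogenase (Dld), which other complexes share. Pdha1 (chromosome X, 160122209 to 160138413, minus strand) was at 92.4, 85.9, 97.2 and 102 FPKM in the control arm and at 74.3, 74.6, 81.3 and 85.4 FPKM in the knockdown arm. The lowest control value lay above the highest knockdown value, and the difference was -0.25 log2 units (SE 0.04, limma adjusted p = 0.00233). Dlat (chromosome 9, 50634633 to 50659780, minus strand) was at 14.6, 12.4, 14.6 and 16.4 FPKM in the control arm and at 19.4, 19.3, 22.0 and 26.4 FPKM in the knockdown arm. Every knockdown value lay above every control value. The difference of 0.55 log2 units (SE 0.05, limma adjusted p = 0.000278) was the largest of all 31 members on the log2(FPKM + 1) scale, which understates low genes. Dld (chromosome 12, 31331277 to 31351453, minus strand) was at 38.2, 32.9, 35.2 and 33.8 FPKM in the control arm and at 42.7, 43.3, 42.2 and 44.8 FPKM in the knockdown arm. Its arms did not overlap either, and it differed by 0.30 log2 units (SE 0.05, limma adjusted p = 0.00341). Pdhb was at 94.1, 87.0, 108 and 137 FPKM in the control arm and at 88.1, 83.9, 103 and 142 FPKM in the knockdown arm, a difference of -0.04 log2 units that did not pass (limma adjusted p = 0.448). Pdhx, a further subunit of the complex that is not a member, differed by -0.04 log2 units and did not pass either (limma adjusted p = 0.438).

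The ratio of the E2 core to E1 alpha mRNA followed from these values. Dlat to Pdha1 was 0.158, 0.144, 0.150 and 0.162 by FPKM in the control arm and 0.262, 0.258, 0.271 and 0.309 in the knockdown arm, so every knockdown ratio exceeded every control ratio. Dlat, Dld and Pdha1 kept their calls under each of the 14 alternatives, with adjusted p from 1.05e-05 to 0.00366, 0.000525 to 0.0176 and 0.000607 to 0.0282.

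Among the kinases that inactivate the complex, 1 was lower, 1 was higher and 1 did not pass. Pdk2 (chromosome 11, 95026258 to 95041354, minus strand) was at 3.33, 3.06, 3.28 and 3.34 FPKM in the control arm and at 2.39, 2.39, 2.91 and 2.15 FPKM in the knockdown arm. The highest knockdown value lay below the lowest control value, and the difference was -0.30 log2 units (SE 0.06, limma adjusted p = 0.00525). Pdk3 (chromosome X, 93764607 to 93832201, minus strand) was at 15.5, 16.4, 17.5 and 19.4 FPKM in the control arm and at 16.6, 17.0, 20.6 and 28.1 FPKM in the knockdown arm. It was higher at all 4 times with the widest gap at 225 min, by 0.22 log2 units (SE 0.08, limma adjusted p = 0.0479). That call was lost under 9 of 14 alternatives, among them leaving out the 0, 105 or 225 min time point (limma adjusted p = 0.0651, 0.119 and 0.102, within 0.0109 to 0.128), and the difference was 0.12 log2 units without 225 min. Pdk1, a known hypoxia target, ranged from 11.8 to 15.7 FPKM and differed by -0.02 log2 units (limma adjusted p = 0.742).

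**Figure D3:**
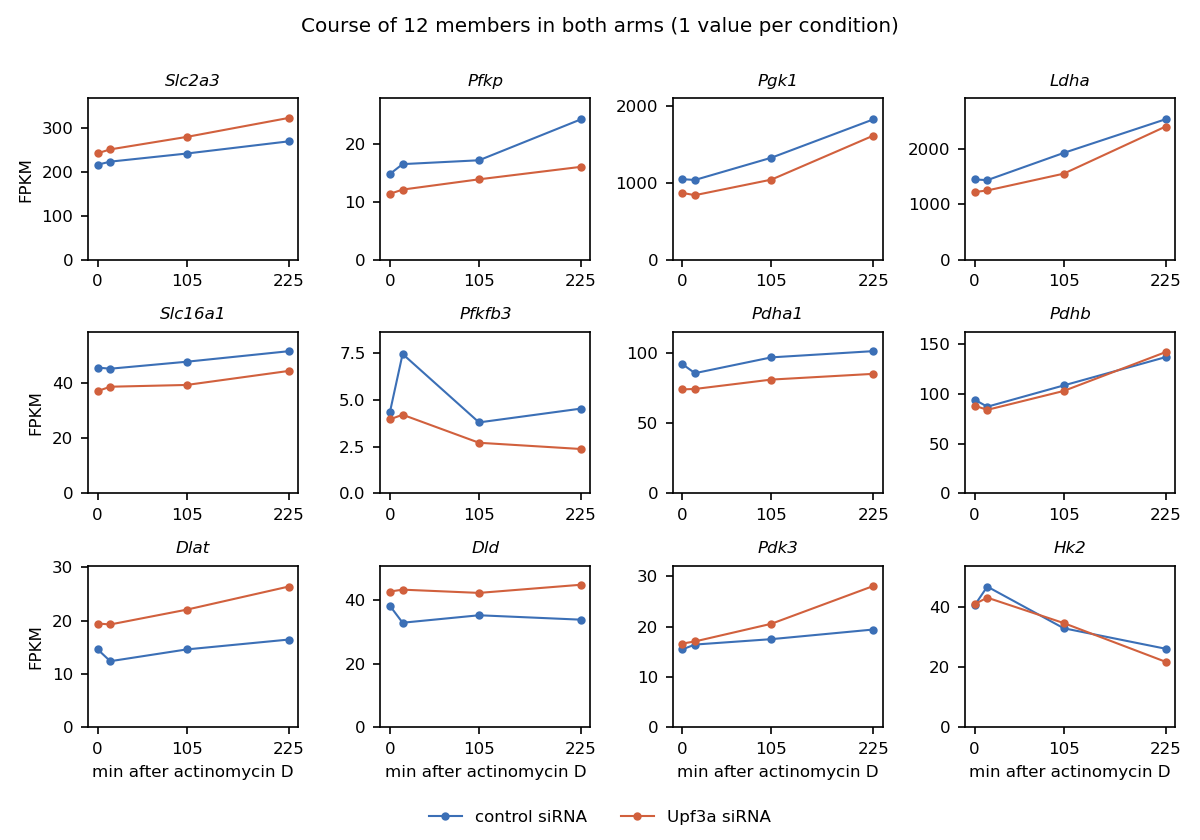
FPKM of 12 members against min after actinomycin D, blue for control siRNA and red for Upf3a siRNA, with 1 value per condition and axes that start at 0. The red line lies above the blue at all 4 times for Slc2a3, Dlat, Dld and Pdk3 and below it at all 4 for Pfkp, Pgk1, Ldha, Slc16a1, Pfkfb3 and Pdha1, while Pdhb and Hk2 cross.

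After actinomycin D most of these mRNAs rose on the deposited scale, where the median gene changed little. The FPKM total of all genes also rose. In the control arm it went from 562848 at 0 min to 880304 at 225 min. In the knockdown arm it went from 537437 to 923333, so a rise in FPKM does not by itself show a gain on that total. The slope over hours, fitted with arm as a term, was positive and called in 22 of 31 members, where 42.7% of all genes were called rising, and negative and called in 1, Hk2, where 38.6% of all genes were, but scaling to ribosomal protein genes turned this to 0 rising and 28 falling. The median slope was 0.14 log2 units per hour for members and 0.01 for all genes; after ribosomal protein scaling these medians became -0.14 for members and -0.23 for all genes. Members lay above all genes by 0.13 log2 units per hour as deposited and by 0.10 under ribosomal protein scaling, but by 0.00 after quantile and by 0.01 after cyclic loess normalization, both of which equalise the distributions of values between conditions. The members' share of all FPKM went from 2.46% at 0 min to 2.78% at 225 min in the control arm and from 2.35% to 2.71% in the knockdown arm.

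As deposited, the slope of Eno1 was 0.35 log2 units per hour (SE 0.043, limma adjusted p = 9.53e-05) and that of Gapdh 0.29 log2 units per hour (SE 0.020, limma adjusted p = 4.39e-06). The Eno1 slope was 0.27 when summed with its near-identical copy Gm5506, 0.11 after quantile and 0.10 after cyclic loess normalization, and 0.06 under ribosomal protein scaling, where its call was lost (limma adjusted p = 0.184, the highest over 14 alternatives, of which the lowest was 6.18e-06). Gapdh lost its call under ribosomal protein scaling and reversed under quantile and cyclic loess normalization. Ldhb, Ldha and Gpi1 had slopes of 0.25, 0.24 and 0.24 log2 units per hour, and all 3 turned negative under ribosomal protein scaling, Ldha also under quantile and cyclic loess normalization. Those of Aldoa (0.18), Pdhb (0.18), Pdk3 (0.13) and Slc2a3 (0.09 log2 units per hour) also turned negative under ribosomal protein scaling, Aldoa and Slc2a3 under the other 2 as well. Hk2 fell by 0.22 log2 units per hour (SE 0.025, limma adjusted p = 6.01e-05), a direction it kept under all 14 alternatives. At 225 min it stood at 0.644 of its 0 min value in the control arm and at 0.531 in the knockdown arm. Its share of hexokinase FPKM went from 86.7% to 72.8% in the control arm and from 86.9% to 69.3% in the knockdown arm. Pfkfb3, at -0.12 log2 units per hour (SE 0.054, limma adjusted p = 0.0612), did not pass.

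No difference between the arms in the rate of loss or gain was detected for any member. The difference in slope between the arms was called in 0 of 31 members and in 1 of 11452 tested genes (0.00873%). It ran from -0.09 log2 units per hour for Pfkfb3 to 0.15 for Eno1, with a median of 0.02 for members and 0.00 for all genes, and was positive in 22 members (71.0%; 53.3% of all genes). The lowest adjusted p was 0.646 by limma, and 2 members (6.45%), Eno1 and Pdk3, had an unadjusted p below 0.05, near the 6.65% of all genes. An adjusted p above the threshold does not show that the rates were equal, and this fit has 2 residual degrees of freedom. Fitted in each arm alone, the slope of Pdk3 was 0.0755 (control) and 0.193 (knockdown) log2 units per hour, and its gap between the arms was 0.10, 0.05, 0.22 and 0.51 log2 units at the 4 times.

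**Figure D4:**
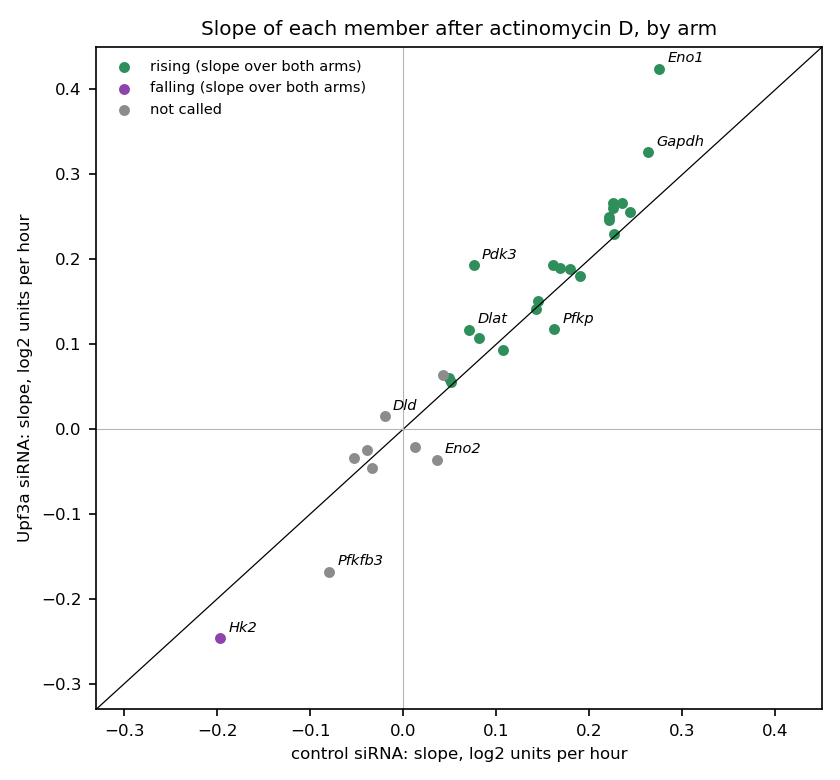
Slope of each member in the Upf3a siRNA arm against its slope in the control arm, both in log2 units per hour on the deposited scale, coloured by the call over both arms; the diagonal marks equal slopes. Most members lie near the diagonal, with Hk2 at the lower left and Eno1 and Gapdh at the upper right. These directions are relative to the deposited scaling, and no member is called rising when values are scaled to ribosomal protein genes.

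Neighbouring pathways were described with lists of genes that are not members; over all tested genes 22.3% were lower and 26.1% higher. Of 4 tested isozymes outside the members, 0 were lower and 1 was higher: Eno3, the muscle enolase, at 0.13 log2 units (SE 0.04, limma adjusted p = 0.0335), a call lost under 7 of 14 alternatives, among them leaving out any 1 time point (limma adjusted p = 0.105, 0.0877, 0.0801 and 0.0664 without 0, 15, 105 and 225 min; 0.0149 to 0.130 over all 14). Of 9 genes for pyruvate carriage and pyruvate dehydrogenase regulation, 2 were lower and 4 were higher in the knockdown arm, with a median of 0.08 log2 units. Mpc1, a subunit of the mitochondrial pyruvate carrier that the table lists as Brp44l, was at 4.16 ± 0.516 FPKM with the control siRNA and at 8.34 ± 0.739 FPKM with the Upf3a siRNA (SD over 4 time points). It was higher at all 4 times, by 0.86 log2 units (SE 0.04, limma adjusted p = 4.74e-05). The other carrier subunit, Mpc2, listed as Brp44, differed by 0.08 log2 units and did not pass (limma adjusted p = 0.277). Pdpr, the regulatory subunit of the phosphatase that reactivates pyruvate dehydrogenase, was higher by 0.54 log2 units (SE 0.05, limma adjusted p = 0.000179). The catalytic phosphatase subunits Pdp1 and Pdp2 differed by -0.51 and -0.24 log2 units (limma adjusted p = 0.000704 and 0.00944), and the Pdp2 call was lost under ribosomal protein scaling.

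In the hypoxia pathway list 10 of 20 tested genes were lower (22.3% of all genes were) and 4 were higher (26.1%), and the median was -0.24 log2 units. The authors' limits were apart at 1 or more times for 3 of the 20. Bnip3, a mitophagy receptor and known target of hypoxia-inducible factor, was at 67.3 ± 11.7 FPKM with the control siRNA and at 43.2 ± 4.99 FPKM with the Upf3a siRNA, a difference of -0.62 log2 units (SE 0.05, limma adjusted p = 0.000179). Ankrd37, P4ha1 (a collagen prolyl hydroxylase subunit) and Mxi1 (a Max-binding repressor) differed by -0.76, -0.55 and -0.50 log2 units (limma adjusted p = 0.000358, 0.000183 and 0.000414). The 4 higher genes were Hif1an, Egln1, P4ha2 and Hif1a itself, at 0.25, 0.18, 0.18 and 0.15 log2 units (limma adjusted p = 0.00899, 0.00944, 0.0107 and 0.0385). Of 14 tested regulators of glycolytic genes 3 were lower and 5 higher, with a median of 0.05 log2 units. Mycn, a Myc-family factor, was higher by 0.69 log2 units (SE 0.04, limma adjusted p = 5.64e-05) and its partner Max by 0.54 log2 units (SE 0.05, limma adjusted p = 0.000196). Prkaa2, a catalytic subunit of the energy sensor AMPK, was lower, at -0.58 log2 units (SE 0.05, limma adjusted p = 0.000200), and Rptor, a subunit of mTORC1, was higher, at 0.39 log2 units (SE 0.05, limma adjusted p = 0.000892).

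Glycogen and other side branches of glycolysis held 9 lower genes and 1 higher gene of 15 tested, with a median of -0.17 log2 units. Pygb, glycogen phosphorylase, differed by -0.29 log2 units (SE 0.04, limma adjusted p = 0.00162). Gfpt1, the first enzyme of the hexosamine branch, and Psph, the last of serine synthesis, differed by -0.30 and -0.39 log2 units (limma adjusted p = 0.000921 and 0.00154), while Gpd1l was higher by 0.38 log2 units (SE 0.05, limma adjusted p = 0.000916). The pentose phosphate list held 1 lower gene and none higher of 8 tested, with a median of -0.02 log2 units; the lower gene was H6pd, at -0.20 log2 units (SE 0.04, limma adjusted p = 0.00801), a call lost under ribosomal protein scaling. In the TCA cycle, which takes up the acetyl-CoA that pyruvate dehydrogenase makes, 1 of 17 genes was lower and 2 were higher, with a median of -0.02. Fh1, fumarate hydratase, was higher by 0.42 log2 units (SE 0.06, limma adjusted p = 0.00144) and Cs, citrate synthase, by 0.21 log2 units (SE 0.05, limma adjusted p = 0.00849). Ogdh, the E1 component of the oxoglutarate dehydrogenase complex that also uses Dld, was lower, at -0.20 log2 units (SE 0.04, limma adjusted p = 0.00638), a call that ribosomal protein scaling ended. By limma, 0 genes of these lists were called for a difference in slope between the arms; an unadjusted p below 0.05 was found for 3 genes of the pyruvate list, 2 of the TCA list, 1 of the hypoxia list, 1 of the regulator list and 0 of the others, where the share over all tested genes was 6.65%.

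Near copies in the genome limit some of these values. By sequence, 11 members match at least 1 other annotated gene with 95% identity or more over 300 bases or more. Gapdh has 76 such copies, Pgk1 has 4, Eno1 and Ldha have 3 each, and Gpi1, Tpi1, Pgam1, Pkm2, Ldhb and Pdhb have 1 each. The match of Pfkfb2 is Gm29427, an annotated coding gene whose exons overlap those of Pfkfb2 on the same strand. It is not a copy elsewhere in the genome. How reads that match several copies were shared is not stated, so the levels of these genes are uncertain. For Eno1 the near-identical copy Gm5506, annotated as Eno1b, was in the table at 896 to 1772 FPKM, more than Eno1 itself in every condition. Exons of Pfkm, Pfkp, Aldoa, Tpi1, Gapdh, Pfkfb2 and Pdha1 overlap an opposite-strand coding gene that is in the table (Senp1, Pitrm1, Fam57b, Spsb2, Iffo1, Yod1 and Map3k15), and strandedness is not stated in the labels, so reads of such a pair may not be told apart. The called members Pfkl, Aldoc, Pfkfb3, Dlat, Dld, Slc16a1, Slc16a3, Slc2a3, Pdk2 and Pdk3 had neither a near copy nor such an overlap.

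**Figure D5:**
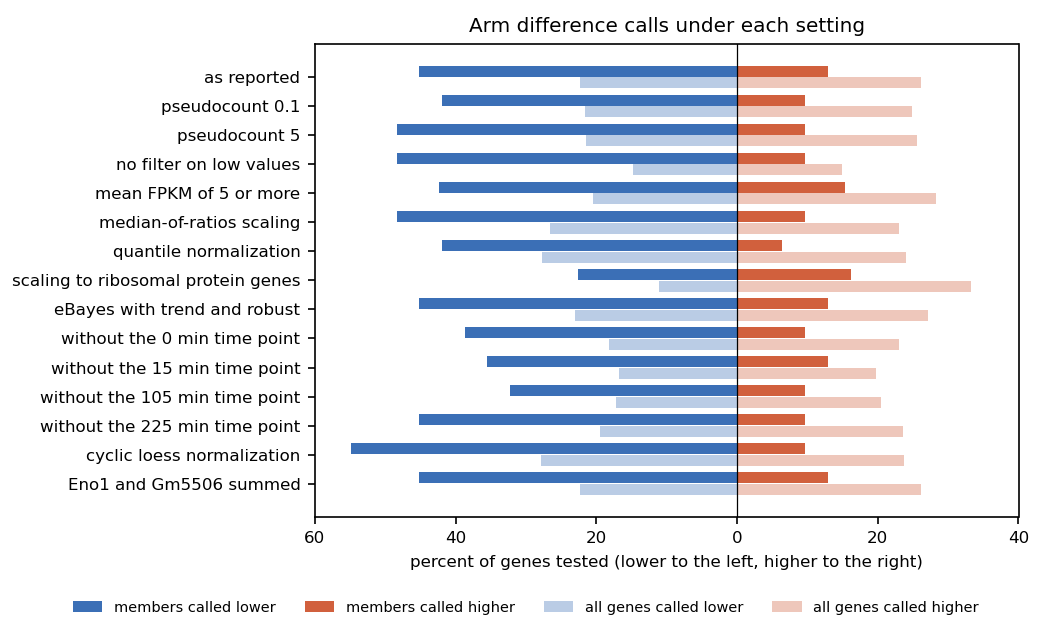
Percent of tested genes called lower (left) and higher (right) in the knockdown arm under the reported setting and 14 alternatives, with dark bars for the members and pale bars for all tested genes. Members are called lower more often than all genes under each setting, from 22.6% of members under ribosomal protein scaling to 54.8% under cyclic loess normalization.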

How the data were processed

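Strandedness and RNA selection are not given in the sources used here. RNA was extracted with Trizol, per the labels' protocols, and TopHat2, Cufflinks and the mm10 build are named in the submitters' processing notes, without versions. The deposited table gives 1 FPKM value with confidence limits per gene and condition, per the file headers; how the authors combined 2 cultures is not stated. FPKM is no count, and no steps of whole reads were seen (the fullest bin held 2.14% to 4.29% of low genes). 0 expression columns were left unused.

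limma 3.58.1 (in R 4.3.3) was run on log2(FPKM + 1), and Python 3.11.15 did the rest. Fits were time factor plus arm (3 residual degrees of freedom), the arm-by-hours term (2) and the slope over hours with arm (5), with Benjamini-Hochberg adjustment over all genes. They were also run on data simulated from the same fits with independent noise, which cannot show differences between cultures or errors of scaling. Called members are given in every condition, as are the most abundant and most changed of each role group. At most 4 genes of each further list are given by moderated t, with the hypoxia genes called higher, Mpc2 and Pdhx added. The members, lists and tests were chosen with earlier results of these data known. Of 14 alternatives 12 were planned, and cyclic loess and the Eno1 plus Gm5506 sum were chosen after seeing the data. Coordinates are GENCODE vM21 (GRCm38, the same assembly as mm10), promoters RefSeq. A planned protein comparison was not run, since protein sequences were not used here.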

Additional observations from a re-analysis of the deposited data

How the results depend on the processing

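No arm difference of a called member changed sign under any of 14 alternatives, and members called lower numbered 7 to 17 and called higher 2 to 5. The 14 lower members all kept their call under 6 of the alternatives. The count called lower was 7 under ribosomal protein scaling, which raised the median of all genes by 0.07 log2 units, and the count called higher was 2 under quantile normalization. Slopes over time depended on the scaling: 13 members rose and 9 fell after quantile normalization, 14 rose and 11 fell after cyclic loess, and 0 rose and 28 fell under ribosomal protein scaling. Falling members numbered 2 with a pseudocount of 0.1, 2 with median-of-ratios scaling and 3 without the 0 min time point. Slopes that reversed, in log2 units per hour, were those of Aldoa (-0.088), Gapdh (-0.0055), Ldha (-0.037) and Slc2a3 (-0.097) under quantile normalization, of Aldoa (-0.096), Gapdh (-0.034), Ldha (-0.037) and Slc2a3 (-0.105) under cyclic loess, and of Aldoa (-0.115), Gpi1 (-0.058), Ldha (-0.051), Ldhb (-0.042), Pdhb (-0.115), Pdk3 (-0.145) and Slc2a3 (-0.199) under ribosomal protein scaling; the cause was not tested. The count of members called for a difference in slope between the arms was 0 under all 14. The unknown depth and the single value per condition limit every result, and differences between cultures cannot be seen.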

Other observations

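Eno1 and its copy Gm5506 differed between the arms in opposite directions at 15 and 225 min. Gm5506 was at 1058, 928, 1386 and 1772 FPKM in the control arm and at 896, 1092, 1146 and 1642 FPKM in the knockdown arm. At 15 min the knockdown value of Eno1 was 458 FPKM against 667 FPKM in control, while that of Gm5506 was 1092 against 928 FPKM. At 225 min the knockdown value of Eno1 was 1582 FPKM against 1303 FPKM in control, while that of Gm5506 was 1642 against 1772 FPKM. The sum of both genes was 1699, 1595, 2294 and 3075 FPKM in the control arm and 1509, 1549, 1959 and 3225 FPKM in the knockdown arm, which are closer to each other at 15 min than either gene alone. With the sum in place of Eno1, the difference in slope between the arms was 0.04 log2 units per hour, against 0.15 for Eno1 alone, and the arm difference was -0.09 log2 units (limma adjusted p = 0.216). This sum was chosen after the values were seen, and how reads were divided between the copies was not tested.

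In the control arm at 15 min, Pfkfb3 (7.47 FPKM, against 3.80 to 4.54 FPKM at the other times) and Eno2 (3.76 FPKM, against 1.25 to 2.89 FPKM) stood at their highest values, and the knockdown arm at 15 min was at 4.21 and 1.68 FPKM. Each is 1 deposited value, and neither gene's confidence limits were apart between the arms.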
